A study of Mus musculus with 3 samples.

Results

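The comparison set 1 microarray of a mouse fibroblast culture given 7 transcription factors against 1 microarray of cultured thyroid follicular cells, so it used 2 of the 3 samples of the series. The members were fixed by the sample labels, and every gene with a named probe entered: 18951 genes, of which 16152 could be compared. The 7-factor culture started from embryonic fibroblasts taken from ICR mice at stage E13.5. Those fibroblasts were infected 2 times with retroviruses for the thyroid factors Pax8, Nkx2.1 and Foxe1 and for the pluripotency factors c-Myc, Klf4, Oct3/4 and Sox2, and they were harvested on day 21. Their last phase was spent in a medium with serum, N2/B27 supplements, potassium iodide and thyroid stimulating hormone. The primary culture came from the thyroids of adult ICR mice and spent 1 week in that same medium. An 8-factor culture, with Hhex added to the same 7 factors, is the other induced sample of the series, and its level is given beside the others. No array of the uninfected fibroblasts was used here, and the labels do not say how many animals gave cells to each culture or what share of the cells took up every virus.

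Follicular cells are the polarised epithelium of the thyroid. They take up iodide, store thyroglobulin outside the cell and take it back into lysosomes to release hormone. Embryonic fibroblasts are mesenchymal cells that build matrix and carry the signalling and patterning genes of the body region they came from. A culture plated from a whole adult gland can also hold macrophages, endothelial cells and neighbouring endocrine cells.

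Every value is a level on a log2 scale, taken relative to the 75th percentile of its own array, so a level of 0 marks that percentile. Where 3 levels are given they stand in the order 7-factor, 8-factor and primary array. Levels of different genes come from different probes and were not set against each other. A difference is the 7-factor level less the primary level. With 1 array a side there is no replicate, no test and no p-value, and a gene was called higher or lower in the 7-factor culture from a 2-fold difference. Where a gene was well above background on only 1 array, its difference is a bound and is written "at least". The reading error that the scanner software assigned to a difference had a median of 0.20 over the genes measured on both arrays, and it does not cover differences between cultures.

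Over all 16152 genes compared, 3078 (19.1%) were higher and 4371 (27.1%) lower, and the median difference was 0. At 10-fold or more the shares were 2.24% higher and 6.14% lower. Each family below is to be read against those shares, which hold relative to the scaling: without it the median of all genes lay at 1.94. The primary array was dimmer: its 75th percentile lay at a signal of 504 and that of the 7-factor array at 2190, while its spike-in controls were not dimmer, the 7-factor array having 0.93 times their mean signal. It also lay on another slide and was read in another scan than the induced arrays, so batch and culture cannot be told apart in any value below. Its lowest signal that counted as above background sat at -5.15 on the level scale, and that of the 7-factor array at -7.78. The scale of levels therefore reached lower on the 7-factor array than on the primary array. Of 1773 bounds on the higher side, 1175 pointed the wrong way and were set to 0, against 0 of 324 on the lower side. The median of 0 includes these bounds. Over the 14055 genes measured on both arrays the median was -0.08, with 2680 higher and 4047 lower.

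Sensory receptor families, best known from neurons of the nose, gave a scale for how dim genes fell between the arrays. Among 312 olfactory receptors compared, 182 counted as lower and 1 as higher, with a median difference of -1.55. These counts were shaped by the rule for bounds, since all 108 bounds on the higher side were set to 0. Of the 183 olfactory receptors measured on both arrays, 161 were lower and 1 higher, with a median of -1.98. Vomeronasal and taste receptors had 29 of 55 lower. With both arrays floored at 25% of the 75th percentile signal, only 18 olfactory receptors were left, with 8 lower and 0 higher, and only 4 vomeronasal and taste receptors, with 1 lower. Under that floor 11527 genes were compared, with 2330 (20.2%) higher and 2158 (18.7%) lower, so 51.9% of the calls were higher against 41.3% without it. Normexp, which models the background of each array in place of the subtraction by the scanner software, gave 2452 genes higher and 4835 lower. Floored counts stand below beside the counts of each family that lost over 25% of its members to the floor. Where normexp, quantile normalization, a shift to the median, the genes measured on both arrays or the mean of a gene's probes turned or evened out the balance of a family, those counts are given too. The part that the lower background of the 7-factor array had in the unfloored counts was not tested.

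**Figure D1:**
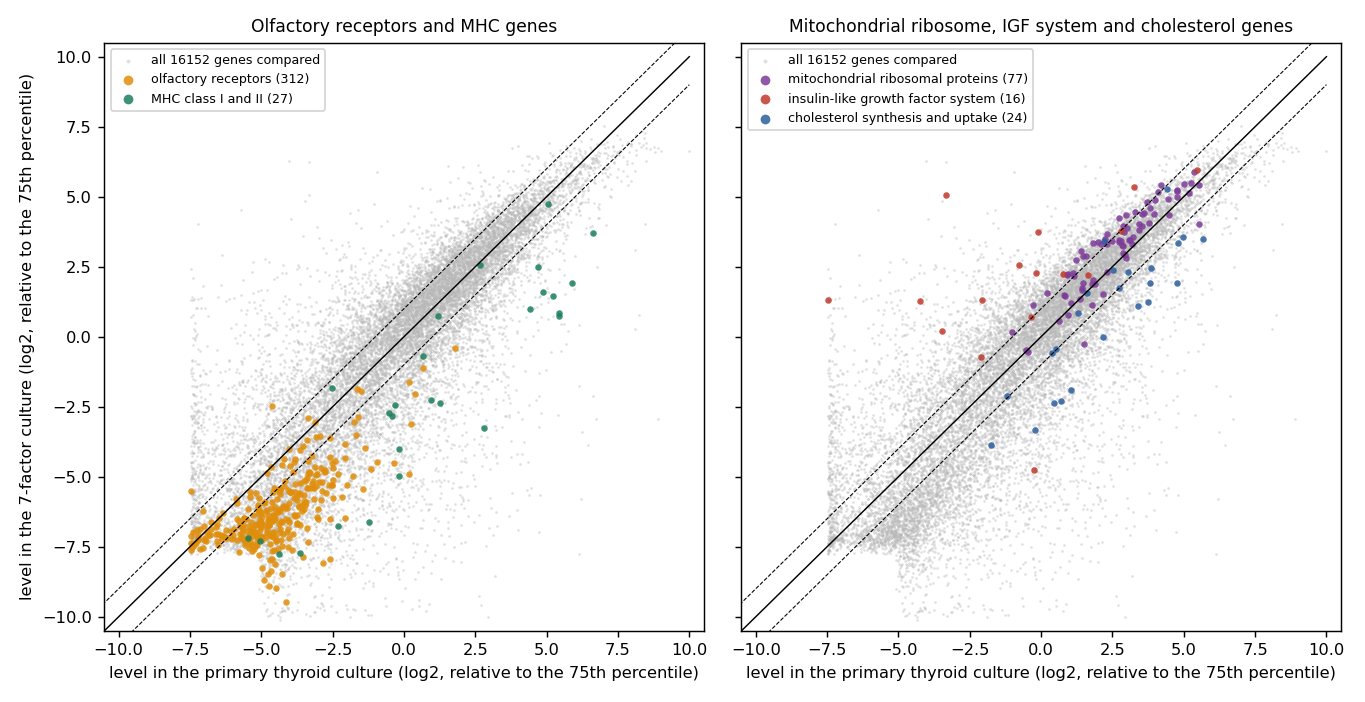
Levels of all 16152 compared genes on the primary array (x axis) and the 7-factor array (y axis), both on the log2 scale described above, with 5 families coloured. The solid line marks equal levels and the dashed lines a 2-fold difference, and genes not well above background on 1 array are drawn at their own signal. Most olfactory receptors lie in the dim corner below the line, most mitochondrial ribosomal genes lie on or just above it in the bright range, and most MHC genes lie below it.

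The labelled identity of each culture was checked on marker genes. All 12 of 12 thyrocyte markers compared fell on the lower side, and their median difference was -6.14. Relative to primary cells, the word thyroid in the label of that culture is thus not borne out by these genes. Of the 12, 10 were measured on both arrays. With the raised floor 9 of 10 were lower, with a median of -2.61. The list was drawn up to include Pax8, Nkx2.1 and Foxe1, which were delivered by virus. Whether their probes read the viral transcripts was not tested. Of 10 fibroblast markers, 8 were higher, and the remaining pair, Vim and Col1a2, differed by 0.47 and 0.61. The primary array carried its thyroid markers and also those of other cells. All 10 macrophage markers and all 7 C cell and parathyroid markers compared were lower in the 7-factor culture. Of 8 endothelial markers, 5 were lower and 1 higher, but only 4 were measured on both arrays. With the raised floor 4 endothelial markers were left, with 2 lower and 0 higher. Under the same floor 4 C cell and parathyroid markers were left, with 4 lower. The macrophage growth factor receptor Csf1r had levels of -5.34, -5.48 and 2.21, the leukocyte phosphatase Ptprc -5.15, -3.71 and 1.0 and lysozyme Lyz2 -5.34, -6.08 and 2.50, low on both induced arrays and high on the primary array. The macrophage list had a median level of -5.24 with 7 factors and 2.62 in primary cells. What part these cells had in the family differences was not tested. In bulk RNA of this kind, fewer cells of a type and less RNA per cell cannot be told apart.

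**Figure D2:**
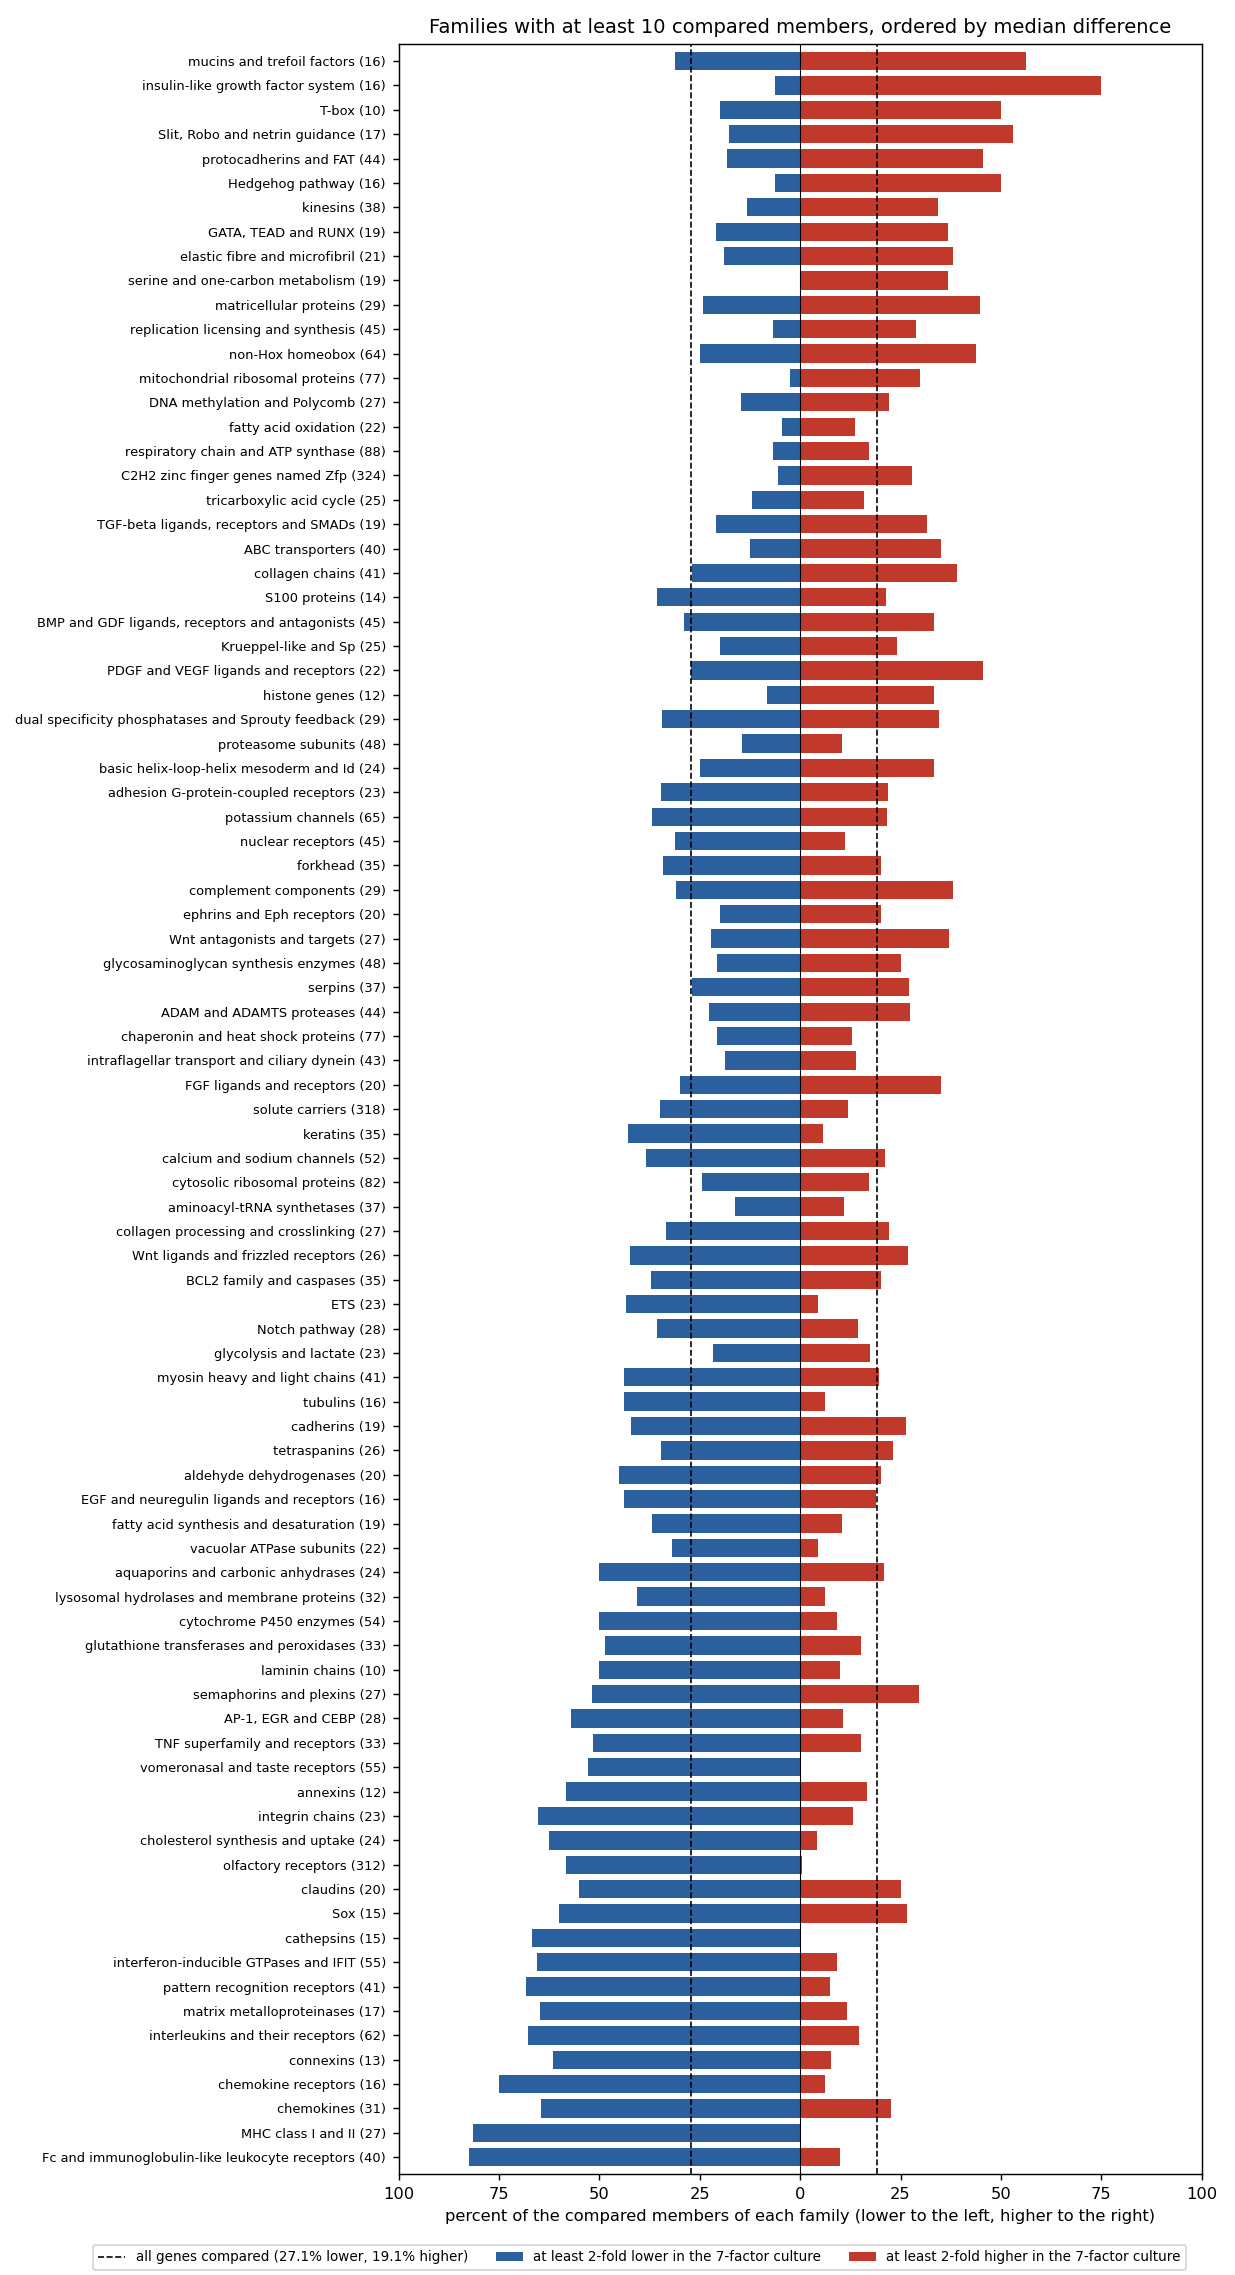
Share of the compared members of each family that were at least 2-fold lower (left, blue) or higher (right, red) in the 7-factor culture, for the families described here with at least 10 compared members, ordered by median difference, with the number compared in brackets. Dashed lines mark the shares over all genes, 27.1% lower and 19.1% higher. Mucins, the IGF system and T-box factors stand at the upper end, and leukocyte receptors, MHC genes, chemokines and connexins at the lower end.

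The insulin-like growth factor system lay on the higher side. Insulin-like growth factors act through the receptor Igf1r, are bound outside the cell by Igfbp proteins and are made in bulk by fetal mesenchyme. Of 16 members compared, 12 were higher and 1 lower, with a median difference of 2.28. The fetal growth factor Igf2 had levels of 5.07, 4.80 and -3.33. It was high on both induced arrays and low on the primary array, 339-fold higher, and its other measured probe differed by 7.66. The RNA-binding proteins that carry Igf2 mRNA went with it. Igf2bp1 had levels of 1.27, 1.98 and -4.23 and was 45.3-fold higher. Igf2bp3 was at least 87.5-fold higher, its primary signal being too close to background to measure. The receptor adaptor Irs1, at levels of 3.74, 3.56 and -0.11, was 14.4-fold higher. Among the binding proteins, Igfbp4 (12.7-fold) and Igfbp5 (4.27-fold) were higher, while Igfbp7 and Igfbp2 differed by 0.50 and 0.56. The member that was lower was Igfals, which holds IGF in a complex in blood and was 23.0-fold lower.

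Hedgehog ligands bind the receptor Patched, free the transducer Smo and change the Gli transcription factors. Of 16 genes of this pathway, 8 were higher and 1 lower, with a median of 0.77. The ligand Shh had levels of -0.45, 0.18 and -7.23 and was at least 26-fold higher. The decoy receptor Hhip had levels of -0.86, -1.82 and -7.33 and was at least 19.6-fold higher. Both are bounds, since the primary signal of neither was well above background. The transcription factor Gli3, at 0.82, 0.98 and -3.23, was 16.6-fold higher, and Gli2, at -1.29, -1.05 and -4.66, was 10.3-fold higher. The co-receptor Gas1 was 3.98-fold higher. The co-receptors Boc and Cdon and the inhibitor Sufu differed by -0.19, -0.05 and -0.81. For Smo the brightest probe differed by 0.52 and another by -2.0. The ligand Dhh was the lower member, at 5.79-fold lower. Above the raised floor, 5 of 11 were higher and 0 lower.

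Wnt ligands bind Frizzled receptors, and secreted antagonists hold them back. Ligands and receptors together were split, with 7 of 26 higher and 11 lower, or 6 and 4 of 18 with the raised floor. The lower ligands included Wnt7b and Wnt10a, both known from epithelia. Wnt7b had levels of -4.03, -3.75 and 1.27, high in primary cells only, and was 39.6-fold lower. Wnt10a, at -2.84, -0.90 and 0.83, was 12.7-fold lower. Also lower were Wnt4 (7.89-fold) and, as bounds set by the 7-factor background, Wnt7a (at least 17.6-fold) and Wnt3a (at least 11-fold). The higher ligands were Wnt2, known from mesenchyme, at 0.98, 1.77 and -2.03 and 8.03-fold higher, and Wnt16, which was at least 25.6-fold higher. Receptors among the largest differences were higher: Fzd4 (13.7-fold), Fzd3 (4.57-fold), Fzd2 (3.84-fold) and Fzd9 (at least 18-fold). Of the 27 antagonists, co-factors and targets, 10 were higher and 6 lower, and 6 were at least 10-fold higher. Under the raised floor 8 of 17 were higher and 2 lower, while normexp gave 8 and 8. The secreted Frizzled-related protein Sfrp4 had levels of 2.93, 2.25 and -6.39 and was at least 270.4-fold higher. Its relative Sfrp1, at 3.29, 2.29 and -2.18, was 44.4-fold higher. The ligand-binding antagonist Wif1 was at least 58.8-fold higher. The agonist Rspo1 (19.5-fold) and its receptor Lgr5 (20.7-fold) were higher too. The intracellular inhibitor Nkd1 (13.4-fold), the receptor Lgr6 (6.72-fold) and the antagonist Dkk1 (4.22-fold) were lower.

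Among BMP, GDF and activin genes, 15 of 45 were higher and 13 lower, both near or somewhat above the shares over all genes. With the raised floor the balance was 13 higher against 7 lower of 27, but 13 against 15 with normexp, 13 against 14 with the mean of probes and 12 against 13 of 36 measured on both arrays. The ligand Gdf10, at 1.04, -0.52 and -7.24, was at least 73.0-fold higher. Bmp7, at 3.04, 2.70 and -0.22, was 9.54-fold higher, and Bmp3 was 10.1-fold higher. On the lower side stood the activin subunit Inhbb, at -0.34, -0.09 and 3.53 and 14.6-fold lower, and the endothelial receptor Acvrl1 (17.9-fold). The follistatin-like genes parted: Fstl4 (80.2-fold) and Fstl3 (11.2-fold) were lower and Fstl1 (6.64-fold) higher. The TGF-beta list had 6 of 19 higher and 4 lower, with a median of 0.30, or -0.12 with the mean of probes. Its 3 ligands parted. Tgfb1, at -2.47, -2.13 and -0.32, was 4.44-fold lower, whereas Tgfb2 (8.28-fold) and Tgfb3 (3.49-fold) were higher. The receptor Tgfbr2 was 3.46-fold higher, the endothelial co-receptor Eng 3.91-fold lower, and the common mediator Smad4 differed by 0.42.

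The EGF and neuregulin list had 7 of 16 genes lower and 3 higher, or 3 and 2 of 10 with the raised floor. Its lower ligands included Areg (16.1-fold), Ereg (13.2-fold), Nrg1 (7.50-fold) and Hbegf (5.11-fold). Btc (7.16-fold) and Egf itself (4.05-fold) were higher. The receptor Egfr, at 3.21, 3.56 and 2.15, was 2.09-fold higher, with other probes from -0.55 to 2.09, and its relative Erbb3 was 7.28-fold lower. Of the 22 PDGF and VEGF genes, 10 were higher and 6 lower, but 6 and 9 with normexp. Their median of 0.12 became -0.13 over the genes measured on both arrays and -0.16 with the mean of probes. The ligand Vegfd, at 2.57, 1.85 and -3.71, was 77.6-fold higher, and Pdgfc was 4.77-fold higher. The mesenchymal receptor Pdgfra was 8.50-fold higher and the receptor-like protein Pdgfrl 10.3-fold higher. Placental growth factor Pgf, at -3.34, -3.80 and 3.24, was 95.7-fold lower, and Pdgfb was 14.1-fold lower. The main angiogenic ligand Vegfa differed by -0.13. FGF ligands and receptors had 7 of 20 higher and 6 lower, but only 10 were left under the raised floor, with 2 and 1. Normexp turned the balance to 2 higher and 8 lower, the mean of probes to 5 and 8 of 21, and the genes measured on both arrays to 5 and 6 of 17. Fgf5 (12.6-fold) and Fgf9 (5.99-fold) were higher among them, and the receptor Fgfr2 differed by -0.40.

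Notch pathway genes had 10 of 28 lower and 4 higher, with 2 and 4 of 16 under the raised floor. The receptors Notch2 and Notch3 were 2.71-fold and 3.32-fold higher, the other probes of Notch2 ranging from -0.46 to 1.08. The target gene Hes1, at -2.03, -0.51 and -0.09, was 3.82-fold lower, and the endothelial ligand Dll4 was 8.01-fold lower.

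Guidance cues steer growing axons and moving cells. The Slit, Robo and netrin list had 9 of 17 genes higher and 3 lower, with a median of 1.15. With normexp that median was 0, with 6 higher and 4 lower. With the raised floor 5 of 11 were higher and 0 lower. The ligand Slit2, at 1.75, 2.91 and -0.88, was 6.16-fold higher, and its receptors Robo1 and Robo3 were 7.11-fold and 7.98-fold higher. The netrin receptor Neo1, at 3.12, 2.73 and 1.0, was 4.34-fold higher, although its other probe differed by -0.09. Semaphorins and their plexin receptors had 14 of 27 lower and 8 higher, but 6 and 5 of 20 with the raised floor. The secreted Sema3a (8.45-fold), Sema3c (at least 6.65-fold), Sema3d (21.5-fold) and Sema3e (5.76-fold) were higher, and the membrane-bound Sema4a (21.0-fold), Sema6b (7.36-fold) and Sema7a (8.94-fold) were lower, although the membrane-bound Sema4g was at least 9.13-fold higher. Ephrins and Eph receptors, which signal at cell contacts, had 4 higher and 4 lower of 20, or 3 and 2 of 13 with the raised floor. Epha3 (at least 39.5-fold) and Epha4 (10.1-fold) were higher and Epha1 (24.7-fold) lower.

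**Figure D3:**
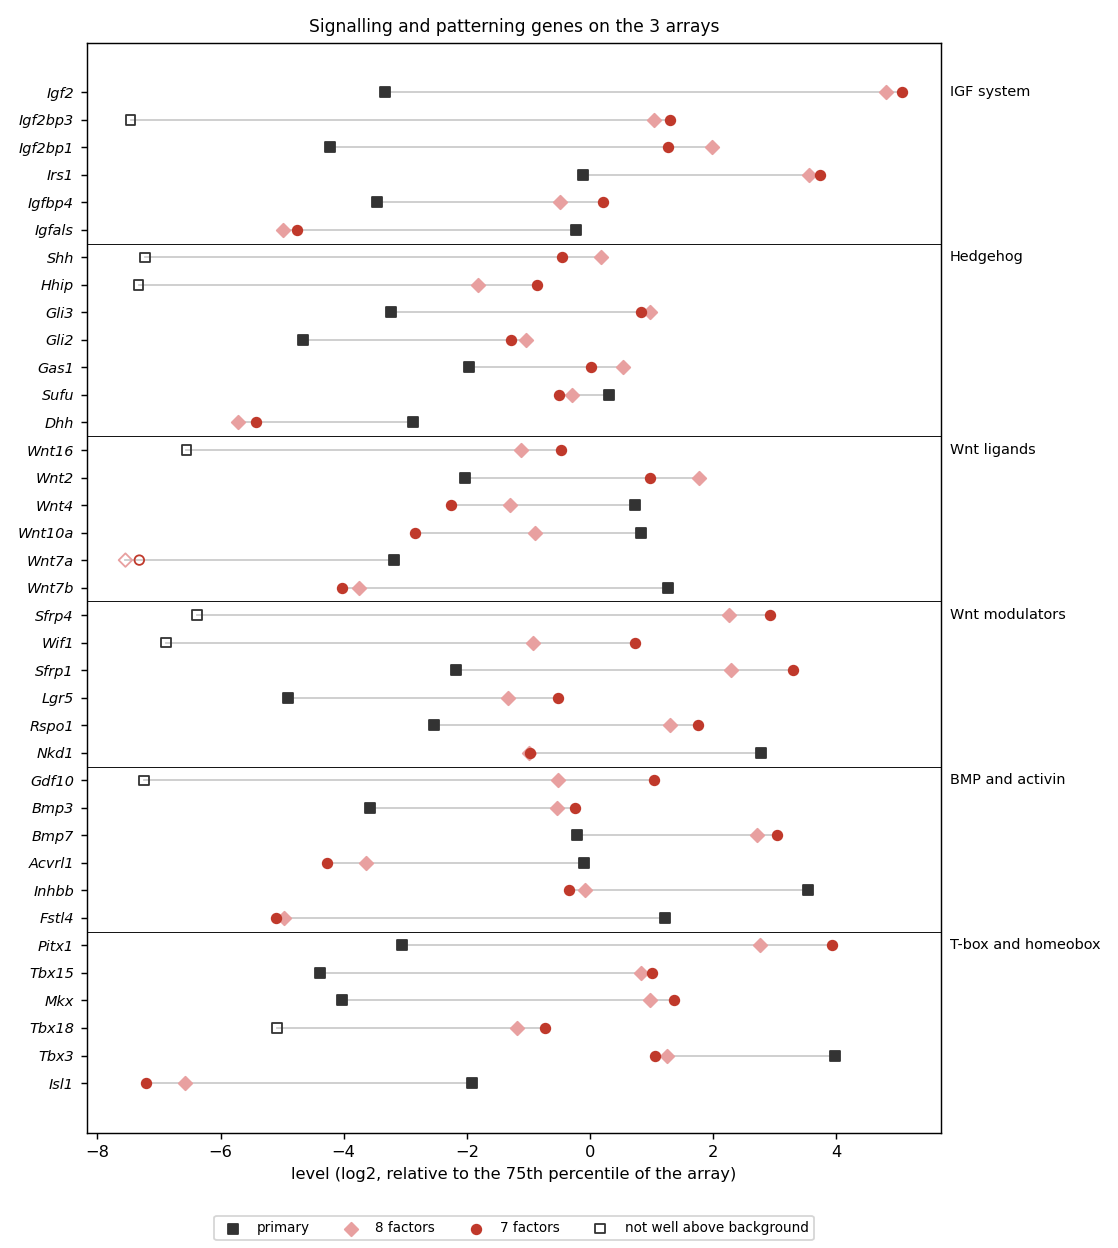
Levels on the log2 scale (0 at an array's 75th percentile) of signalling and patterning genes on the primary array (black squares), the 8-factor array (pale diamonds) and the 7-factor array (red circles); open symbols are not well above background. Igf2, Sfrp4 and Pitx1 lie far to the right on both induced arrays, and Wnt7b, Inhbb and Isl1 lie further to the right on the primary array than on the induced arrays.

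Homeobox genes outside the Hox clusters help set the identity of organs and body regions. Of 64 compared, 28 were higher and 16 lower. The floored counts were 15 of 28 higher and 1 lower, but normexp turned the balance to 15 higher and 21 lower of 64, with a median of 0. Pitx1, known for specifying the hindlimb and pituitary, had levels of 3.93, 2.76 and -3.05. It was bright on both induced arrays and dim in primary cells, 126-fold higher. Mkx, a tendon factor, at 1.36, 0.98 and -4.03, was 42.1-fold higher. Meis2, at 3.80, 3.09 and 0.30, was 11.3-fold higher, and the teashirt factors Tshz2 and Tshz3 were 19.8-fold and 14.8-fold higher. The brightest probe of Tshz1 made it 2.25-fold higher, but another differed by -1.47. On the lower side, Isl1, a factor of endocrine, cardiac and neural progenitors, had levels of -7.21, -6.58 and -1.92 and was 39.4-fold lower. The primary level of Isl1 lay just above the raised floor, under which it did not pass 2-fold. The stomach mesenchyme factor Barx1 was at least 25.9-fold lower, a bound set by the 7-factor background, and Emx1 was 13.3-fold lower.

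T-box factors had 5 of 10 compared members higher and 2 lower. Tbx15 and Tbx18 mark limb and trunk mesenchyme. Tbx15, at 1.01, 0.82 and -4.39, was 42.1-fold higher, and Tbx18 was at least 20.5-fold higher. Tbx5, a forelimb and heart factor, was at least 10.7-fold higher, and Tbx1, of the pharyngeal region, was 5.64-fold higher. Tbx3, known from limb, heart and mammary gland, at 1.06, 1.25 and 3.97, went the other way and was 7.52-fold lower, as did Tbx2 (2.86-fold). GATA, TEAD and RUNX genes with their co-factors had 7 of 19 higher and 4 lower, or 5 and 1 of 12 with the raised floor. Gata6 (11.5-fold), the Hippo pathway factors Tead2 (5.64-fold) and Tead4 (7.12-fold) and their co-factor Vgll3 (6.16-fold) were higher. Gata3, a factor of parathyroid, skin and T cells among others, had levels of -4.96, -4.91 and -0.24 and was 26.4-fold lower.

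Forkhead genes were split, 7 higher and 12 lower of 35, and evenly so with the raised floor, 7 and 6 of 21. Foxd1 (at least 100.5-fold), Foxp1 (8.18-fold), Foxp2 (7.0-fold) and Foxc1 (6.84-fold) were higher, and the endoderm factor Foxa2 (5.23-fold) and the thymic and skin factor Foxn1 (28.6-fold) lower. The Sox family had 9 of 15 lower and 4 higher, but 3 and 3 of 9 with the raised floor. Sox6 (at least 43.1-fold) was higher and the endothelial factors Sox7 (41.6-fold) and Sox18 (4.46-fold) lower, as was Sox4, at -0.42, 0.30 and 2.06 and 5.55-fold lower. The brightest probe of Sox11 made it 7.11-fold higher, but its other probes ranged from -2.13 to 3.55. ETS factors had 10 of 23 lower and 1 higher, or 4 and 0 of 16 with the raised floor. The epithelial members Elf5 (at least 94.1-fold) and Ehf (8.39-fold) and the leukocyte members Spi1 (23.2-fold) and Spib (9.57-fold) led that side. The list of basic helix-loop-helix and Id factors had 8 of 24 higher and 6 lower. These were 4 and 7 with normexp and 4 and 4 of 16 with the raised floor. The mesenchymal factor Twist2 (13.6-fold) and Ebf3 (15.7-fold) were higher, and the differentiation inhibitors Id1 (2.71-fold) and Id4 (5.71-fold) lower. For Epas1 the probes disagreed, 2.83 on the brightest and -2.94 on another. AP-1, EGR and C/EBP factors had 16 of 28 lower and 3 higher. Fosl1 (9.88-fold), Jund (2.91-fold) and the leukocyte factor Batf (23.2-fold) were lower, while Fos, at 1.56, 0.61 and -0.88, was 5.42-fold higher. Nuclear receptors had 14 of 45 lower and 5 higher, but 5 and 4 of 20 with the raised floor. Retinoic acid receptor Rarb (6.77-fold), adipogenic Pparg (3.84-fold) and thyroid hormone receptor Thra (3.16-fold) were higher and vitamin D receptor Vdr (6.92-fold) lower. Krueppel-like and Sp factors had 6 higher and 5 lower of 25, but 2 and 7 with normexp, 3 and 5 with the mean of probes and 2 and 3 of 14 with the raised floor. Klf2, a factor that endothelial cells raise under flow, at 3.67, 3.01 and 6.34, was 6.36-fold lower, and Klf15, a regulator of metabolism, at 1.01, 0.84 and -1.76, was 6.84-fold higher. Klf4, which was also delivered by virus, differed by -0.65.

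The largest family of transcription factors, the C2H2 zinc fingers with names in Zfp, had more higher than lower calls, by a margin that depended on the background treatment. Of 324 compared, 90 were higher and 18 lower, and the median was 0.37 against 0 for all genes. On the raised floor these were 64 and 6 of 235, but with normexp 56 and 36 of 324, with a median of 0.06. The differences were mostly small, with a middle range from -0.12 to 1.09. Zfp979, at 1.28, 1.24 and -2.44, was 13.2-fold higher, and Zfp618, at 3.33, 3.36 and 0.14, was 9.10-fold higher. The 4 picked for their mean level over the arrays, Zfp771, Zfp330, Zfp637 and Zfp428, differed by -0.06, 0.46, 0.62 and 0.94.

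Genes that copy DNA were seldom lower. Of 45 replication genes, 13 were higher and 3 lower, with a median of 0.55. DNA polymerase subunits Pola1, at 2.45, 2.47 and 0.54, and Pole, at 2.58, 2.72 and 0.69, were 3.75-fold and 3.69-fold higher. The clamp loader Rfc1 was 4.41-fold higher and the helicase subunit Mcm7 2.60-fold higher. The sliding clamp Pcna differed by 0.57, under 2-fold. The primase subunit Prim2 went far the other way, at -5.67, -5.10 and 0.02 and 51.6-fold lower, while the polymerase subunit Pola2 was 2.11-fold lower on the 7-factor array only, its levels being -3.03, -1.29 and -1.95. Kinesin motors had 13 of 38 higher and 5 lower, but 10 and 9 with normexp. The mitotic motors Kif20a (4.32-fold) and Kif22 (3.49-fold) were among the higher ones. The probes of the mitotic motor Kif11 disagreed, 3.42 and -1.51. Kif26a (18.4-fold) and Kifc3 (10.1-fold) were lower. The linker histones H1f5, at 3.77, 2.12 and -0.03, and H1f3, at -0.20, -0.56 and -3.72, were 13.9-fold and 11.5-fold higher, whereas the replacement histones H3f3a and H3f3b differed by -0.25 and -0.75. Among the DNA methyltransferases, Dnmt3b was 4.44-fold higher and Dnmt3a and its co-factor Dnmt3l were 3.02-fold and 8.40-fold lower. The Polycomb subunits Cbx2 (3.20-fold), Rnf2 (3.45-fold) and Bmi1 (2.40-fold) were higher, and Cbx7 (2.83-fold) and Ring1 (2.77-fold) lower.

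Mitochondrial ribosomes make the few proteins encoded by mitochondrial DNA. Of 77 mitochondrial ribosomal proteins, 23 were higher and 2 lower. Their median difference was 0.47, with a middle range from 0.17 to 1.11, and 52 were under 2-fold. Mrps22, at 3.05, 2.73 and 1.40, was 3.13-fold higher, and Mrps14, at 3.36, 3.09 and 1.81, was 2.93-fold higher. The lower pair was Mrps6 (2.88-fold) and Mrpl37 (3.44-fold). Respiratory chain and ATP synthase genes, a list that includes assembly factors, had 15 of 88 higher and 6 lower. That is no more higher calls than among all genes but fewer lower calls. The cytochrome c oxidase subunit Cox6b2, known from testis, had levels of 3.84, 3.49 and 0.00 and was 14.3-fold higher, and its common form Cox6b1 was 3.12-fold higher. The muscle form Cox6a2 (2.51-fold) and the common form Cox6a1 (2.11-fold) were both lower, and the ATP synthase subunit Atp5b was 2.64-fold lower.

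Cytosolic ribosomal proteins, which are made in balance in most cells, spread widely here. Of 82 genes, 14 were higher and 20 lower, with a median of -0.25. Quantile normalization turned this to 17 higher and 5 lower with a median of 0.28, and the mean of probes gave 15 and 18 with a median of 0.03, so the family had no settled direction. Rps19 had levels of 5.52, 4.48 and 2.24 and was 9.70-fold higher, and Rps15, at 5.61, 4.60 and 2.79, was 7.04-fold higher. Rplp0, at 6.28, 5.15 and 8.48, was 4.60-fold lower, and Rps18, at 6.70, 6.50 and 8.61, was 3.77-fold lower. Both induced arrays lay on the same side of primary cells for these 4 genes. The paralogue Rpl39l, known from testis, was at least 37.5-fold higher. Array probes may not separate ribosomal genes from their processed pseudogenes, so single members of this family are uncertain.

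Proteasome subunits had 5 of 48 higher and 7 lower, with a median of 0.01, or 6 and 5 with normexp and 6 and 6 with a shift to the median. The immunoproteasome subunits, which interferon induces, led the lower side: Psmb8, at -0.93, 0.04 and 2.99, was 15.2-fold lower, and Psmb9, at -1.19, -0.77 and 1.79, was 7.86-fold lower. Subunits of the standard core such as Psma5 and Psma2 differed by -0.04 and 0.16. Heat shock and chaperonin genes stayed at a median of -0.01, though the inducible Hspa1a (4.15-fold) and Hspa1b (12.3-fold), near-identical copies that probes may not separate, were lower. The constitutive Hspa8 was 3.71-fold lower and the endothelial relative Hspa12b 20.6-fold higher.

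Lysosomes are where thyroglobulin is digested to free thyroid hormone, and macrophages are rich in them too. Of 15 cathepsins, 10 were lower and 0 higher, with a median of -1.65. The proteases with the broadest expression were among them. Ctsb had levels of 5.39, 4.74 and 7.03 and was 3.13-fold lower. Ctsl, at 5.72, 5.48 and 7.46, was 3.35-fold lower, and Ctsd, at 4.54, 4.31 and 6.85, was 4.95-fold lower. The leukocyte cathepsins differed more: Ctss, at -2.80, -4.44 and 5.40, was 294-fold lower, and Ctsw was 215-fold lower. Other lysosomal hydrolases and membrane proteins had 13 of 32 lower and 2 higher. The galactosylceramidase Galc (5.85-fold) and beta-mannosidase Manba (4.83-fold) were lower, and the acid lipase Lipa, at 2.12, 0.70 and 0.45, was 3.19-fold higher. The membrane proteins Lamp1 and Lamp2 differed by -0.70 and -0.95. The proton pump that acidifies lysosomes had 7 of 22 subunits lower. Its a subunits parted, Atp6v0a1 being 7.90-fold lower and Atp6v0a4, known from kidney, 9.11-fold higher.

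**Figure D4:**
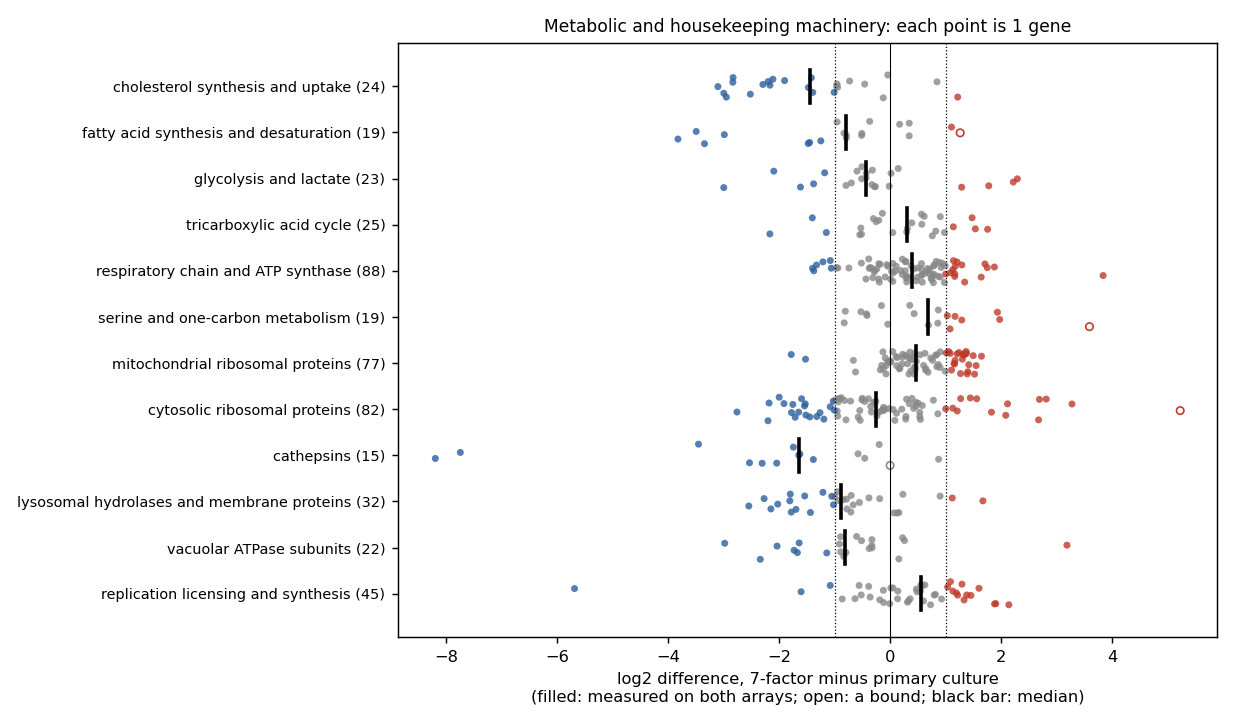
Log2 difference of the 7-factor from the primary culture (x axis) for each member of 12 metabolic and housekeeping families (rows, number compared in brackets); red points are at least 2-fold higher, blue points at least 2-fold lower, open points are bounds and black bars are medians. Cholesterol genes and cathepsins lie to the left, with medians of -1.45 and -1.65, and mitochondrial ribosomal proteins to the right, with a median of 0.47.

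Cholesterol is made from acetyl-CoA through mevalonate and squalene, or taken up as LDL, and the enzymes are known to be controlled together by sterols. Of 24 genes, 15 were lower and 1 higher, with a median of -1.45. All were measured on both arrays. At the entry of the pathway, Acat2 had levels of -3.32, -4.59 and -0.22 and was 8.60-fold lower, and Hmgcs1, at 3.34, 3.52 and 4.81, was 2.77-fold lower. The mevalonate kinase Mvk, at -2.37, -1.31 and 0.46, was 7.11-fold lower. Later steps were lower as well: the lanosterol synthase Lss (7.99-fold), the demethylase Cyp51 (7.74-fold) and the oxidase Msmo1 (4.59-fold). Dhcr7, of the last steps, was the exception at 2.33-fold higher. Fatty acid synthesis genes had 7 of 19 lower and 2 higher. The elongase Elovl7, at 0.13, 0.96 and 3.95, was 14.2-fold lower, the sterol and lipid regulator Srebf1 2.38-fold lower and acetyl-CoA carboxylase Acaca 2.78-fold lower. Fatty acid synthase Fasn and the desaturase Scd2 differed by -0.37 and 0.34. Fatty acid oxidation, the opposite route, had 3 of 22 higher and 1 lower, with the thiolase Acaa2, at 6.18, 5.60 and 4.39, 3.47-fold higher and the dehydrogenase Acads 4.86-fold lower.

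Glycolysis genes had 4 higher and 5 lower of 23, and 4 each with normexp and with quantile normalization. Isoforms of the same step went apart. Of the phosphofructokinases, Pfkp, at -2.18, -2.04 and 0.82, was 7.99-fold lower and Pfkl 3.06-fold lower, while the muscle form Pfkm was 2.45-fold higher. Of the lactate carriers, Slc16a3 was 2.60-fold lower and Slc16a1, at 3.14, 3.18 and 0.92, was 4.66-fold higher. The neural enolase Eno2 (4.91-fold) and pyruvate dehydrogenase kinase Pdk1 (3.43-fold) were higher, and Aldoa (2.27-fold) lower. Citric acid cycle genes mostly stayed under 2-fold, 18 of 25, with Idh3g (2.90-fold) and Pdhb (2.79-fold) higher and Ogdh (4.49-fold) and Mdh2 (2.22-fold) lower. Serine and folate metabolism, which supplies carbon units for nucleotide synthesis, had 7 of 19 genes higher and 0 lower. Mthfd1, at 3.57, 3.16 and 1.64, was 3.82-fold higher, although its other probe differed by -0.72. Also higher were thymidylate synthase Tyms (2.25-fold) and the glycine cleavage enzyme Gldc (at least 12.1-fold).

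Detoxifying enzymes differed by member. Glutathione transferases and peroxidases had 16 of 33 lower and 5 higher. Gstt2, at -3.24, -2.98 and 3.42, was 101-fold lower, and the bright Gstm1, at 5.91, 5.89 and 8.10, was 4.57-fold lower. The epithelial peroxidase Gpx2, at 2.87, 1.69 and 6.0, was 8.78-fold lower. The omega class was on the other side, Gsto1 3.75-fold higher and Gsto2 9.56-fold higher. Cytochrome P450 genes had 27 of 54 lower, but under the raised floor 7 lower and 4 higher of 18. Cyp2s1, at 3.45, 2.94 and -2.54, was 63.9-fold higher and Cyp1b1, at 3.25, 2.32 and 0.28, was 7.83-fold higher. The retinaldehyde dehydrogenases changed places: Aldh1a1, at 4.66, 3.64 and 0.22, was 21.7-fold higher, whereas Aldh1a2, at -0.05, -1.28 and 2.92, and Aldh1a3, at -0.88, -0.07 and 2.44, were 7.85-fold and 10.0-fold lower.

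Matrix genes went both ways. Collagen chains had 16 of 41 higher and 11 lower, with 6 and 4 past 10-fold. They were even with normexp, 15 and 15, and with the mean of probes, 14 and 14. Col14a1, a fibril-associated collagen of tendon and dermis, had levels of 4.05, 3.33 and -1.70 and was 53.6-fold higher. The fibril collagen Col11a1, at 3.95, 3.90 and -0.79, was 26.8-fold higher, and Col8a1 was 4.45-fold higher. The lower side held chains of cartilage fibrils and basement membranes, among them Col9a1 (82.0-fold), Col9a3 (45.2-fold), the epithelial Col17a1 (45.8-fold), Col18a1 (11.3-fold) and Col4a3 (9.11-fold). Elastic fibres and microfibrils had 8 of 21 genes higher. The fetal fibrillin Fbn2, at 0.75, 0.77 and -4.86, was 48.7-fold higher, the microfibril protein Mfap2, at 3.89, 3.01 and -1.52, was 42.5-fold higher, and the fibulin Efemp1 was 20.2-fold higher. The latent TGF-beta binding proteins Ltbp2 (4.37-fold) and Ltbp3 (3.35-fold) were lower. Laminins had 5 of 10 lower and 1 higher, or 3 and 1 of 7 with the raised floor. The chains of epithelial laminin Lamb3 (52.7-fold) and Lama3 (3.09-fold) were lower, the mesenchymal Lama4, at 2.76, 2.46 and -1.55, was 19.8-fold higher, and the broadly made Lamb1 and Lamb2 differed by 0.40 and -0.22.

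Enzymes that finish collagen had 6 of 27 higher and 9 lower, but 8 and 7 with a shift to the median and 6 and 5 of 22 with the raised floor. The procollagen enhancers Pcolce2, at 2.18, 1.32 and -3.29, and Pcolce were 44.3-fold and 7.08-fold higher, and the crosslinking enzymes Lox and Loxl2 were 2.69-fold and 4.86-fold higher. The hydroxylases Plod1 (8.40-fold), P3h1 (6.05-fold) and P4ha2 (2.79-fold) were lower. Matricellular proteins had 13 of 29 higher and 7 lower, or 9 and 6 of 21 with the raised floor. Within the CCN family Ccn5, at 1.89, 1.37 and -3.66, and Ccn3 were 46.7-fold and 13.8-fold higher, and Ccn2, at 5.42, 5.27 and 7.85, was 5.40-fold lower. Osteopontin Spp1, at 4.01, 5.76 and 8.43, was 21.4-fold lower. Enzymes of glycosaminoglycan synthesis and trimming had 12 of 48 higher and 10 lower, or 8 and 7 of 35 with the raised floor, but 8 and 12 with normexp and 13 and 14 with the mean of probes. The heparan sulfotransferase Hs6st2, at 2.56, 2.85 and -1.86, was 21.3-fold higher, and the chondroitin sulfotransferase Chst7, at -1.57, -1.24 and 1.73, was 9.88-fold lower. Sulf1 and Sulf2, which trim sulfates from heparan sulfate, were 5.98-fold and 5.51-fold higher, and the hyaluronan synthases Has1 and Has2 went apart, 7.60-fold higher and 3.06-fold lower. The glypican Gpc3, a heparan sulfate proteoglycan of fetal tissues, at 1.17, 0.47 and -1.47, was 6.24-fold higher, and the syndecan Sdc4, at 2.50, 1.25 and 3.85, was 2.55-fold lower.

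Metalloproteinases were lower in 11 of 17 cases. The neutrophil collagenase Mmp8, at -6.84, -5.29 and 2.98, was 906-fold lower, the gelatinase Mmp9, at -5.57, -5.72 and 3.78, was 653-fold lower and the macrophage elastase Mmp12 was at least 267-fold lower. These are known as enzymes of leukocytes. The fibroblast enzymes Mmp2 and Mmp11 differed by 0.69 and 0.91. ADAM and ADAMTS proteases had 12 of 44 higher and 10 lower, and the balance went either way by setting: 7 and 1 of 16 with the raised floor, 9 and 9 of 30 measured on both arrays, 11 and 12 with the mean of probes and 7 and 15 with normexp. The aggrecanase Adamts5, at 2.85, 2.71 and -1.10, and its relative Adamts15 were 15.5-fold and 12-fold higher, and the leukocyte sheddase Adam8 was 35.7-fold lower. Integrins had 15 of 23 lower. The leukocyte chains Itgam (328-fold), Itgax (at least 141-fold) and Itgb2 (68.0-fold) and the epithelial Itgb6 (88.1-fold) led, and the mesenchymal Itga8 (13-fold), Itga9 (12-fold) and Itga11 (2.72-fold) were the higher ones. Serpins had 10 higher and 10 lower of 37, or 7 and 3 of 18 with the raised floor. The plasma protease inhibitors Serping1 (16.1-fold) and Serpind1 (at least 21.2-fold) were higher.

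Junction families differed in direction. Claudins seal epithelial tight junctions, and 11 of 20 were lower and 5 higher, or 6 and 4 of 11 with the raised floor. Cldn7 had levels of -0.54, -0.06 and 5.15 and was 51.9-fold lower, Cldn4, at -3.86, -3.65 and 1.74, was 48.5-fold lower and Cldn3, at 1.42, 1.39 and 4.59, was 9.01-fold lower. Cldn11, known from myelin and testis, at 0.85, -0.62 and -4.74, was 48.3-fold higher, and Cldn10 was 4.90-fold higher. Connexins of gap junctions had 8 of 13 lower, but 3 of 9 with the raised floor, with Gja5 (46.3-fold) among the lower ones. The fibroblast connexin Gja1, at 0.51, 0.75 and 0.03, differed by 0.49. Cadherins had 8 of 19 lower and 5 higher, but 5 and 5 with quantile normalization and 3 and 3 of 6 with the raised floor. The epithelial Cdh1, at -1.19, -0.53 and 2.27, was 11.1-fold lower and Cdh4 was 17.7-fold lower, whereas the mesenchymal Cdh11, at 2.64, 3.0 and -1.22, was 14.5-fold higher and Cdh13 12.5-fold higher. Protocadherins had 20 of 44 higher and 8 lower, and with the raised floor 7 and 0 of 14. With normexp they were even, 9 and 9, with a median of 0. Pcdhb21 (28.5-fold) and Pcdh10 (at least 37.4-fold) were higher, and the giant cadherin Fat1, at 5.05, 4.85 and 2.77, was 4.84-fold higher. The clustered protocadherins are close copies of each other, so a probe of this family may read a neighbour. Keratins had 15 of 35 lower, or 8 of 14 with the raised floor. Krt7, at 3.09, 2.50 and 8.11, was 32.6-fold lower and Krt18, at 5.57, 5.32 and 7.97, was 5.29-fold lower. Of their partners, Krt8, at 6.25, 5.80 and 7.38, was also lower, with a difference of -1.13. Krt19, at 5.06, 4.58 and 5.21, differed by -0.15, under 2-fold. These keratins of simple epithelium were thus bright on all 3 arrays.

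Membrane and cytoskeletal families outside the junctions were mixed. Tetraspanins, which organise membrane patches, had 9 of 26 lower and 6 higher. The leukocyte tetraspanin Cd53, at -5.76, -4.53 and 1.28, was 132-fold lower and Cd82, at 1.60, 1.43 and 5.05, was 10.9-fold lower, while Tspan5, at 2.57, 1.96 and -0.07, was 6.26-fold higher and Tspan13, at 4.72, 3.59 and 2.46, was 4.80-fold higher. Adhesion G-protein-coupled receptors had 8 of 23 lower and 5 higher, or 3 and 2 of 13 with the raised floor. Adgrg1, at -0.26, -0.66 and 5.69, was 61.8-fold lower, and Adgrg6, known from nerve and cartilage, at 0.54, 0.82 and -2.85, was 10.5-fold higher. Tubulins had 7 of 16 lower, Tuba1c, at 6.28, 5.72 and 7.81, being 2.87-fold lower, while Tubb5 and Tubb6 differed by -0.11 and -0.23. Cilium genes had 8 lower and 6 higher of 43, or 1 and 6 of 29 with the raised floor. They were even with quantile normalization, 8 and 8, and with a shift to the median, 6 and 6. The motile axoneme genes Dnah2, at -6.50, -5.98 and -3.22, Dnah9, at -6.77, -6.41 and -3.70, and Rsph1, at -6.07, -5.24 and -2.64, were 9.69-fold, 8.38-fold and 10.8-fold lower. These axoneme genes lay below the raised floor on every array. The transport genes Ift80, at 0.11, -0.82 and -1.63, and Ift74, at 0.46, -0.12 and -1.05, were 3.32-fold and 2.86-fold higher, although Ift20 was 2.09-fold lower. Phosphatases and Sprouty genes that damp MAP kinase signalling had 10 higher and 10 lower of 29, or 7 and 5 of 21 with the raised floor and 6 and 9 with normexp. Dusp2, at 1.76, 1.51 and 5.01, was 9.52-fold lower, Dusp8, at 4.24, 3.82 and 6.49, was 4.73-fold lower and Dusp10, at -0.83, -0.71 and -2.47, was 3.12-fold higher.

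Solute carriers, the largest transporter family, had 111 of 318 lower and 38 higher, or 59 and 25 of 213 with the raised floor. Slc34a2, a phosphate carrier of lung and gut, was 96.0-fold lower, the bicarbonate carrier Slc4a5, at -4.20, -4.51 and 3.95, was 284-fold lower and the peptide carrier Slc15a3 was at least 206-fold lower. The amino acid carriers Slc38a4, at 2.27, 1.41 and -4.12, and Slc38a5 were 83.7-fold and at least 143-fold higher. ABC transporters had 14 of 40 higher and 5 lower, or 9 and 3 of 27 with the raised floor, but 8 and 9 with normexp. The sterol exporter Abcg1 (8.25-fold) was higher and the surfactant lipid carrier Abca3 (6.64-fold) lower. Potassium channels had 24 of 65 lower and 14 higher, but with the raised floor 7 and 8 of 21. Kcnj10, at -6.53, -7.03 and 0.66, and Kcnj16, at -1.66, -1.95 and 1.57, whose subunits can pair, were 146-fold and 9.43-fold lower, and Kcna6 was 48.8-fold higher. Calcium and sodium channels had 20 of 52 lower and 11 higher, or 8 and 4 of 27 with the raised floor. The epithelial sodium channel subunit Scnn1b (36.6-fold), the calcium channel Trpv6 (25.5-fold) and the magnesium channel Trpm6 (30.9-fold) were lower, and the T-type calcium channel Cacna1g (at least 64.2-fold) higher. Aquaporins and carbonic anhydrases had 12 of 24 lower and 5 higher, or 6 and 3 of 15 with the raised floor. The water channels Aqp5, at 1.06, 1.45 and 4.66, and Aqp1, at 0.67, 0.92 and 3.73, were 12.1-fold and 8.34-fold lower. Carbonic anhydrases went apart: Car2 and Car9 were 8.76-fold and 9.94-fold lower, and Car14, at 2.27, 1.63 and -4.28, was 93.8-fold higher.

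Mucins, trefoil factors and their companions had 9 of 16 higher and 5 lower. The gel-forming Muc5b, at 2.05, 1.87 and -4.57, and Muc5ac, at 1.10, 0.44 and -2.0, were 98.4-fold and 8.59-fold higher, the other probe of Muc5ac differing by -0.41, whereas the membrane mucins Muc1 (14.3-fold) and Muc20 (16.2-fold) were lower. Myosin genes had 18 of 41 lower and 8 higher, or 8 and 7 of 30 with the raised floor. Slow cardiac myosin heavy chain Myh7 had levels of 4.19, 3.93 and -3.96 and its cardiac relative Myh6 was 6.33-fold higher, while the fast muscle chains Myh4 (12.6-fold) and Myl1 (73.2-fold) and the leukocyte myosin Myo1f (421-fold) were lower.

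Of the 11 immune and defence families described here, 9 had medians below -1, and complement and S100 proteins did not. Dim olfactory receptors had a median of -1.55, and the TNF (-1.13) and annexin (-1.22) medians were smaller in size than that. Over genes measured on both arrays the olfactory median was -1.98. On that basis the medians of interferon-inducible genes (-1.86), pattern recognition receptors (-1.84) and chemokine receptors (-1.39) were smaller in size too. That of interleukins and their receptors (-2.02) was close to it. With the raised floor the TNF and interferon-inducible medians were -0.81 and -0.65, and that of olfactory receptors was -0.75. All 10 markers of macrophages were lower too, and the part of those cells in the values below was not tested. MHC molecules present peptides on the cell surface. Of 27 compared, 22 were lower and 0 higher, with a median of -3.26, and under the raised floor 17 of 21 were lower. The class I heavy chain H2-K1 had levels of 3.69, 3.98 and 6.61 and was 7.56-fold lower. H2-Q7, at 0.74, 1.37 and 5.44, was 26-fold lower, although class I genes are so alike that a probe may read several. The loading factor Tapbp, at 2.50, 2.11 and 4.68, was 4.52-fold lower. The light chain B2m, at 4.76, 4.16 and 5.05, differed by -0.29, under 2-fold. The class II chaperone Cd74, at -3.27, -0.50 and 2.80, was 66.8-fold lower, and its 8-factor level lay between the others.

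Interferon-inducible genes had 36 of 55 lower and 5 higher, with 16 and 3 of 39 under the raised floor. Oas1a, which makes the messenger that activates RNase L, had levels of -3.33, -1.71 and 1.41 and was 26.8-fold lower. The antiviral Rsad2, at -6.18, -4.03 and -1.69, was 22.5-fold lower, and Slfn2 was 80.4-fold lower. The primary level of Rsad2 lay just above the raised floor, under which it did not pass 2-fold. The antiviral membrane proteins Ifitm3 and Ifitm7, at 5.21, 4.84 and 5.26 and 4.97, 4.45 and 4.62, differed by -0.05 and 0.35, and Ifitm2 was 2.94-fold higher. Since many of these genes lay on the same side, their promoters were read from RefSeq windows of build GRCm38.p6 that run from 250 bases before to 50 after the start of a transcript. The window was searched on both strands for the core of the interferon-stimulated response element, GAAANNGAAA. It was found in 29 of the 51 list members with a window (56.9%), against 3.99% of all 27025 genes with one. Compared members with the element had 15 of 25 lower and a median of -1.66, and those without it 12 of 18 and -1.98. The NF-kappaB element described with the chemokines below was in 5 of these 51 windows (9.80%), and the interferon element was in 3 of 23 MHC windows (13%). The stretches below show the element, in capitals, in the 5 members with it that were lowest and in the 2 that were highest; each is on the strand of its gene, so an element on the opposite strand reads as its reverse complement.
Oas1a (chr5:120907511-120907570, minus strand): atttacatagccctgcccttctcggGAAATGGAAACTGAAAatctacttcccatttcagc
Rsad2 (chr12:26456538-26456597, minus strand): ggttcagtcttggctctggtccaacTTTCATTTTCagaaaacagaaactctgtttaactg
Gbp3 (chr3:142559974-142560033, plus strand): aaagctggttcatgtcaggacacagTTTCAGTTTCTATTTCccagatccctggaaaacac
Gbp5 (chr3:142496744-142496803, plus strand): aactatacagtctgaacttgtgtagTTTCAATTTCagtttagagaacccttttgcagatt
Oas3 (chr5:120777700-120777759, minus strand): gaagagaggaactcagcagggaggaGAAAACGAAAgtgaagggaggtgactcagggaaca
Ifitm2 (chr7:140955973-140956032, minus strand): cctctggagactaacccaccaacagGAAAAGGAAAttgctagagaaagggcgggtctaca
Ifi205 (chr1:174031855-174031914, minus strand): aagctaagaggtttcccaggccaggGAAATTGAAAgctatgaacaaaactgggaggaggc
In Oas1a and Gbp3 the capitals cover 2 overlapping matches. The differences of the 7 genes were -4.74, -4.49, -4.21, -3.62 and -2.94 for the lower ones and 1.55 and 1.53 for the higher ones. Gbp3, Gbp5 and Oas3 were singled out after their values were seen.

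Chemokines draw leukocytes into tissue. Of 31 compared, 20 were lower, 14 of them at least 10-fold, and 7 were higher. Ccl6, at -2.92, -3.84 and 6.72, was 799-fold lower, and Ccl4, at -5.97, -7.41 and 2.0, was 251-fold lower. Ccl2, which attracts monocytes and is made by many stromal cells, was bright on all 3 arrays, at 2.40, 4.05 and 5.45, and was 8.26-fold lower. The membrane-bound Cx3cl1, at 1.03, 1.42 and 4.56, was 11.6-fold lower. Cxcl12, the stromal ligand of Cxcr4, went the other way at 3.38, 2.70 and 0.74 and 6.25-fold higher. Its scavenger receptor Ackr3, at 2.96, 2.87 and 0.40, was 5.90-fold higher and the only higher one of 16 chemokine receptors, of which 12 were lower, or 3 of 5 with the raised floor. Cxcl13, which attracts B cells, was at least 72.6-fold higher, a bound set by the primary background. The windows of the chemokines were searched for an NF-kappaB element, GGGANNTTCC, found in 5 of 25 members (20.0%) and in 1.63% of all genes. All 5 members with it were lower, as were 9 of the 17 compared without it. Other pairings of element and list went the other way in their medians. The 3 compared MHC genes with the interferon element had -0.29, against -2.92 for the 15 without it. The 3 chemokines with the interferon element had -1.03, against -3.10 for the 19 without it. Interferon-inducible genes with the NF-kappaB element had -1.52, against -1.76 without it. The 4 with the largest differences carry it at these places, again in capitals, and a run of 11 capitals is the same site matched on both strands.
Cxcl3 (chr5:90786003-90786062, plus strand): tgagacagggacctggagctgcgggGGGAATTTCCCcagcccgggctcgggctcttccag
Cxcl2 (chr5:90903777-90903836, plus strand): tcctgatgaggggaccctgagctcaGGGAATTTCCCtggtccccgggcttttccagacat
Cxcl10 (chr5:92349014-92349073, minus strand): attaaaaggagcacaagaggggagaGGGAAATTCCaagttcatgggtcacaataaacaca
Ccl1 (chr11:82179974-82180033, minus strand): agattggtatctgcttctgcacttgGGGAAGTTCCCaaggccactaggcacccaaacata
Cxcl3 was at least 1678-fold lower, and the other 3 differed by -4.93 (Cxcl2), -3.70 (Cxcl10) and -3.01 (Ccl1, a bound). The last 3 were singled out after their values were seen. A match is a run of letters and does not show that a factor was bound.

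Interleukins and their receptors had 42 of 62 lower and 9 higher, with 19 and 5 of 36 under the raised floor. The list, drawn by name, includes the amino acid oxidase Il4i1, at -4.49, -4.23 and 4.36 and 463-fold lower. The common receptor chain Il2rg of lymphocytes (at least 72.0-fold) and the cytokine Il22 (at least 85.7-fold) were lower. The signalling subunit Il6st, made by most cells, at 3.69, 2.96 and 1.95, was 3.34-fold higher, and Il11ra1 differed by 0.33. TNF family members had 17 of 33 lower, or 9 of 21 with the raised floor. The co-stimulatory receptor Tnfrsf9 was at least 1443-fold lower, lymphotoxin Ltb 87.9-fold lower and Cd40 78.1-fold lower. The receptor Tnfrsf19, at 2.44, 1.77 and -3.39, was 56.6-fold higher, the death receptor Fas 3.60-fold higher and the decoy Tnfrsf11b 2.68-fold higher. The main TNF receptor Tnfrsf1a differed by -0.43.

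Receptors of myeloid cells lay mostly on the lower side. Fc and immunoglobulin-like receptors had 33 of 40 lower, 20 of them at least 10-fold, and a median of -3.28, and with the raised floor 15 of 21 lower. Fcgr1, at -6.27, -8.73 and 3.23, was 722-fold lower, Fcgr3, at -6.61, -6.29 and 2.44, was 531-fold lower and the shared signalling chain Fcer1g, at -2.84, -3.78 and 3.58, was 85.6-fold lower. Trem2 was 176-fold lower and Pirb 217-fold lower. The 4 higher members were all Ly6 genes, which also mark stromal and progenitor cells: Ly6a, at 4.66, 3.62 and 1.75, Ly6c1, at 1.87, 1.05 and -2.23, Ly6c2, at 5.90, 5.24 and 3.65, and Ly6i. They were 7.48-fold, 17.1-fold, 4.78-fold and 2.65-fold higher, and Ly6c1 and Ly6c2 are near-identical copies. Pattern recognition receptors had 28 of 41 lower, or 13 of 20 with the raised floor. The C-type lectins Clec4n (163-fold), Clec10a (at least 1369-fold) and Clec4a2 (at least 431-fold) led, and the lipoprotein sensor Tlr2, at -0.13, 0.00 and 3.61, was 13.3-fold lower. The growth factor lectin Clec11a was 6.76-fold higher.

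Complement went both ways, with 11 of 29 higher and 9 lower, or 8 and 5 of 20 with the raised floor, but 8 and 11 with normexp and 9 each with the mean of probes. The C1q subunits, made by macrophages, were lower: C1qb had levels of -4.02, -4.35 and 2.74 and was 108-fold lower. The proteases that pair with C1q were higher: C1s1, at 3.39, 1.84 and -1.97, was 41.0-fold higher and C1ra, at 2.94, 2.03 and -0.52, was 11-fold higher. The inhibitor Cd55, at 2.86, 1.94 and -2.15, was 32.2-fold higher, while properdin Cfp, at -0.60, -0.46 and 3.76, was 20.5-fold lower. The central component C3, at 5.15, 4.24 and 6.14, differed by -0.99, just under 2-fold. Annexins had 7 of 12 lower, Anxa1, at 5.73, 5.60 and 7.82, being 4.27-fold lower and Anxa2 3.50-fold lower, while Anxa8, at 6.12, 5.76 and 2.59, was 11.6-fold higher. S100 proteins had 5 of 14 lower and 3 higher, or 3 and 1 of 9 with the raised floor. Among them, S100a4, a gene of fibroblasts and leukocytes, at 5.14, 5.55 and 2.18, was 7.77-fold higher, S100a1 and S100a14 were 4.11-fold and 3.48-fold lower, and S100a6 differed by 0.53. Survival genes had 13 of 35 lower and 7 higher. The inflammatory caspase Casp1 was 32.1-fold lower and Casp12, at 0.82, 1.01 and -3.16, was 15.9-fold higher. The broad survival factor Mcl1 (2.25-fold) and the p53 target Bbc3 (2.38-fold) were higher.

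**Figure D5:**
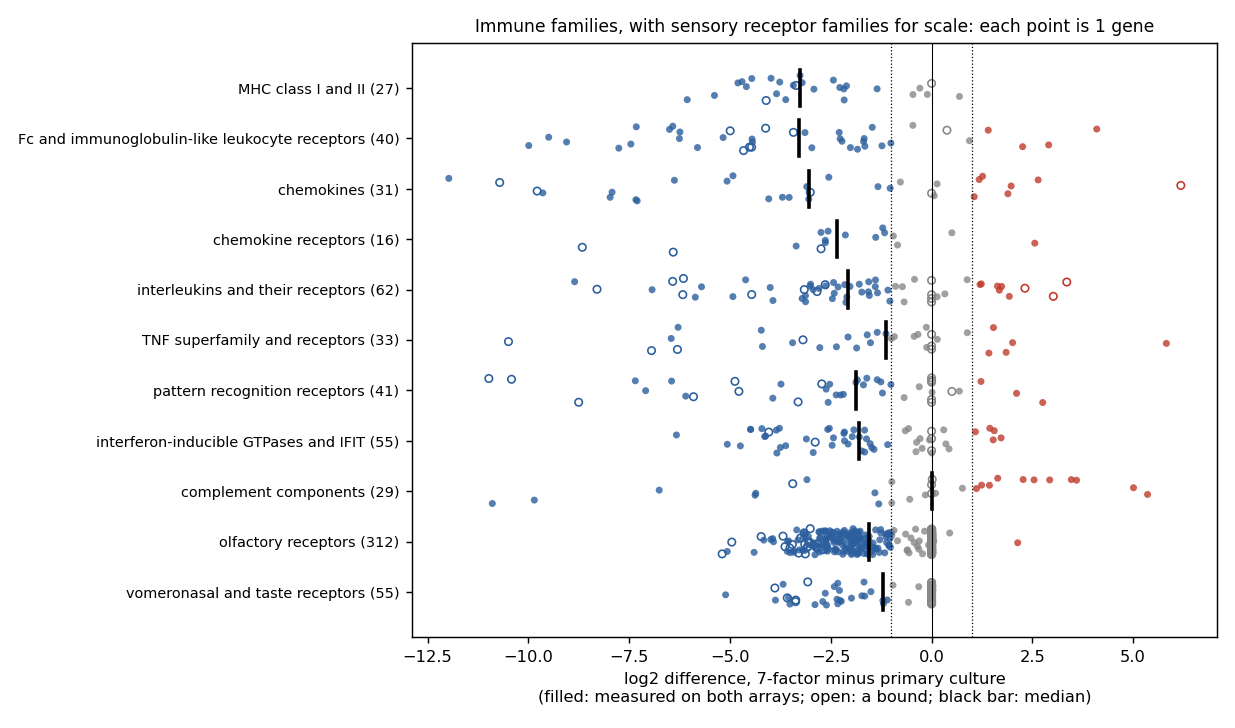
Log2 difference of the 7-factor from the primary culture (x axis) for each member of 9 immune families and, for scale, 2 sensory receptor families (rows, number compared in brackets); red points are at least 2-fold higher, blue points at least 2-fold lower, open points are bounds and black bars are medians. In the olfactory row 108 of the 312 points are bounds set to 0. Its median is -1.55, or -1.98 over the genes measured on both arrays. Every immune row reaches further to the left than the olfactory receptors, Cd74 at -6.06 being the lowest MHC gene, and complement has points at both ends.

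Some of the largest differences fell outside all of these families. Itm2a, a membrane protein of differentiating mesenchyme, was bright on both induced arrays at 5.89, 5.33 and -0.95 and was 114-fold higher. The lectin Zg16 of secretory granules, at 2.57, 1.91 and -4.26, was 113-fold higher, Tmeff2, at 2.14, 1.41 and -4.45, was 96.5-fold higher and Tprg, at 3.53, 2.32 and -2.97, was 90.4-fold higher. The integrin-like protein Itgbl1 (at least 227-fold) and the serine palmitoyltransferase subunit Sptssb (at least 191-fold) were higher. Xist, the RNA that silences an X chromosome in female cells, had levels of 4.01, 3.30 and -7.22 and was at least 574-fold higher. On the other side, the aspartic protease Napsa, known from lung and kidney, had levels of -3.40, -2.83 and 6.25 and was 805-fold lower. Acod1, which makes itaconate in activated macrophages, at -6.39, -7.14 and 3.67, was 1069-fold lower, and the cytokine receptor chain Csf2rb, at -5.66, -6.84 and 4.39, was 1063-fold lower, with another probe at -3.44. Plekhd1, at -7.08, -6.74 and 3.10, was 1162-fold lower, and the arginase Arg2 was at least 724-fold lower.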

How the data were processed

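RNA of 3 cultures, 1 array each, was hybridised in Cy3 to Agilent 1-colour mouse arrays. The deposited scanner files hold intensity per spot, extracted with Feature Extraction 11.5.1.1 per the file headers and 10.5 per the submitters' processing notes. The deposited value table holds the same processed signal on a linear intensity scale.

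Control spots and outlier flags were left out, repeat spots of a probe were averaged, and the signal was put on a log2 scale less the 75th percentile of its array. The brightest probe over the 3 arrays stood for a gene. Probe names came from the arrays' accessions and RefSeq: 27815 of 41171 probes were named and 13356 were not. Genes entered the comparison if either array read them well above background. The other value was set to the higher of its own signal and the lowest signal well above background on its array, and a bound pointing the wrong way was set to 0. Array copies of the same probe had an SD of 0.075 to 0.112 on the log2 scale, and the number of arrays limits the precision. Alternatives were normexp (limma 3.58.1, R 4.3.3, offset 50, on the median signal, since a mean signal was not used here), quantile, median and no scaling, other floors and probe rules, and a 4-fold threshold. Calculations used Python 3.11.15 with pandas 2.3.3 and numpy 2.4.6 and were run on simulated arrays with known differences. Those arrays shared the same background flags, so the handling of bounds was not tested.

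Families were described by counts and medians, with no test. Named genes were all members of lists of up to 12, the 5 largest differences each way and the 4 highest mean signals of longer lists, the markers, and the 15 largest differences and 8 largest bounds each way over all genes. The members and lists were chosen with earlier results of these data known. Some items are not reported here.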

Additional observations from a re-analysis of the deposited data

Results flagged for a closer look

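S100a9, a calcium-binding protein of neutrophils and activated epithelium, differed in sign between the induced cultures. Its level was -6.29 in the 7-factor culture, -2.36 in the 8-factor culture and -4.62 in primary cells. The difference from primary cells was -1.67 with 7 factors and 2.26 with 8 factors. Its levels lay below the raised floor on every array. The 7-factor difference was near the median for dim olfactory receptors, -1.55, or -1.98 over those measured on both arrays. A difference of that size may thus not be particular to this gene, whereas the 8-factor difference went the other way. With 1 array a culture the difference between the induced cultures was not tested, and neither was its cause.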

How the results depend on the processing

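The counts of 3078 higher and 4371 lower genes moved by under 1.5 times with normexp background correction, quantile normalization, a shift to the median, genes above background on both arrays and the mean of all probes of a gene. Without scaling between arrays they were 11208 and 1140, because the median of all genes then lay at 1.94, and 90.8% of the calls were higher against 41.3%. With the raised floor 2158 genes were lower, of 11527 compared, and with a 4-fold threshold 1049 were higher and 2420 lower. Of 28 lists with over 50% of their members on the same side, all kept the sign of their median relative to all genes under each alternative, except the Slit, Robo and netrin list under normexp, which kept no sign at 0. Of 658 list medians under the alternatives, taken relative to all genes, 495 moved by less than the median scanner reading error of their members and 163 by more. Of the 658, 14 changed sign, all in lists with no such majority, such as cytosolic ribosomal proteins, Wnt ligands and TGF-beta genes. A median that started at 0 or fell to 0 was not counted as a change of sign, although it is among the 658. The balance of higher and lower calls turned or evened out in 11 and 4 of 94 lists with normexp, 7 and 3 with the raised floor, 5 and 2 with the mean of probes, 2 and 1 with genes on both arrays, 1 and 3 with quantile normalization, 1 and 2 with the shift to the median, and 46 and 0 without scaling. No paired analysis was possible because each group has 1 array. Dim probes of the primary array, whose background lay at -5.15 against -7.78, limit what can be seen of genes lower than that in primary cells.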
